A study of Mus musculus with 9 samples.

Results

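The genes described here make sterols and fatty acids, or control their synthesis. Of 33 listed genes, 29 were measured, among 10018 named genes on the arrays. A gene counted as measured when a probe annotated with its symbol was detected, at a detection p under 0.05, on 3 or more of 9 arrays, and the brightest such probe stood for it. All 9 arrays detected 28 of the 29 genes, and 8 arrays detected Fasn, which was undetected on NUP98-CDX1 replicate 2. None of the 29 therefore entered through a single group. The probe of Acaca was detected on no array, and Acat2, Hmgcs1 and Fdft1 were not analysed here.

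The cells were bone marrow cells of C57/B6 mice, 6 to 8 weeks old, treated with 5-FU, a drug toxic to dividing cells. The cells were transfected with NUP98-CDX1, with NUP98-CDX4 or, as control, with the green fluorescent protein EGFP, and total RNA of 3 samples per group was measured on Illumina bead arrays of 1 colour, 9 in all. In each fusion a piece of NUP98, a protein of the nuclear pore, is joined to CDX1 or CDX4, which are homeobox transcription factors of the caudal type. All groups, controls included, shared the 5-FU treatment and a medium that held 2% serum, IL-6 and stem cell factor. The labels give no vector or promoter and do not say whether replicates came from separate mice or cultures, so p-values measure only the spread between these arrays, which may be technical. The columns are named with a day whose meaning is not stated, and no day is shared between groups, so day and group cannot be told apart.

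Cholesterol is built from acetyl-CoA through mevalonate, farnesyl diphosphate and squalene, which is closed into lanosterol and then trimmed, reduced and rearranged into cholesterol. Fatty acids are built from the same acetyl-CoA, then lengthened by elongases and given double bonds by desaturases. Both branches are governed by the SREBP transcription factors. When membrane sterol is low, SCAP escorts SREBP from the endoplasmic reticulum to the Golgi, where it is cleaved and freed to enter the nucleus, and when sterol is plentiful the INSIG proteins hold SCAP back. Cells in culture can also take up sterol from serum lipoproteins, and dividing cells need lipid for new membranes.

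Of 45281 probes, 17257 to 19300 were detected on an array, and the mean probe intensity ran from 400.6 to 754.3. The arrays fell into a brighter and a dimmer set, seen in the 21684 probes detected on no array. The brighter set held NUP98-CDX4 replicates 1 and 3, EGFP replicates 1 and 2, and NUP98-CDX1 replicate 3. The dimmer set held NUP98-CDX4 replicate 2, NUP98-CDX1 replicates 1 and 2, and EGFP replicate 3. Signals of the undetected probes correlated at a Spearman rho of 0.73 to 0.77 within the brighter set, 0.43 to 0.46 within the dimmer set and 0.32 to 0.38 between sets. The labels name no batch, and each set holds all 3 groups, so calls against EGFP are given without and with the array set as a block. The 8 listed haematopoietic markers were all measured. The erythroid genes Hba-a1, Alas2, Ermap and Slc4a1, the stromal and endothelial genes Col1a1, Col1a2, Col3a1, Cdh5 and Lepr, and the adipocyte genes Adipoq, Plin1 and Cidec were detected on no array, while 2 erythroid and 2 stromal and endothelial markers were measured.

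No synthesis gene was called in either fusion against EGFP. Of 29 genes, 0 passed the limma test at an adjusted p under 0.05 in NUP98-CDX1 against EGFP, where 1.23% of all named genes passed, and 0 passed in NUP98-CDX4 against EGFP, where 6.1% passed. At an unadjusted p under 0.05 there were 4 genes (13.8%) in NUP98-CDX1 and 4 (13.8%) in NUP98-CDX4, beside 11.8% and 16.9% of all named genes. The lowest adjusted p was that of Nsdhl in NUP98-CDX1, 0.184, and that of Fads1 in NUP98-CDX4, 0.0959. These shares lay near those of all genes.

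Most of the small differences pointed upward. In NUP98-CDX1, 24 of 29 genes (82.8%) had a mean above that of EGFP, beside 53.9% of all named genes, and the median log2 difference was 0.22 beside 0.03. In NUP98-CDX4 it was 27 of 29 (93.1%) beside 54.5%, with a median of 0.19 beside 0.03. Both fusions were compared with the same 3 EGFP arrays, so the directions are not independent of each other. Differences ran from -0.50 to 0.54 in NUP98-CDX1 and from -0.30 to 0.66 in NUP98-CDX4. The 95% confidence intervals reached 0.29 to 0.78 to either side, with a median of 0.46, and lay within 1 of zero on the log2 scale for 25 NUP98-CDX1 differences and 24 NUP98-CDX4 differences.

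**Figure D1:**
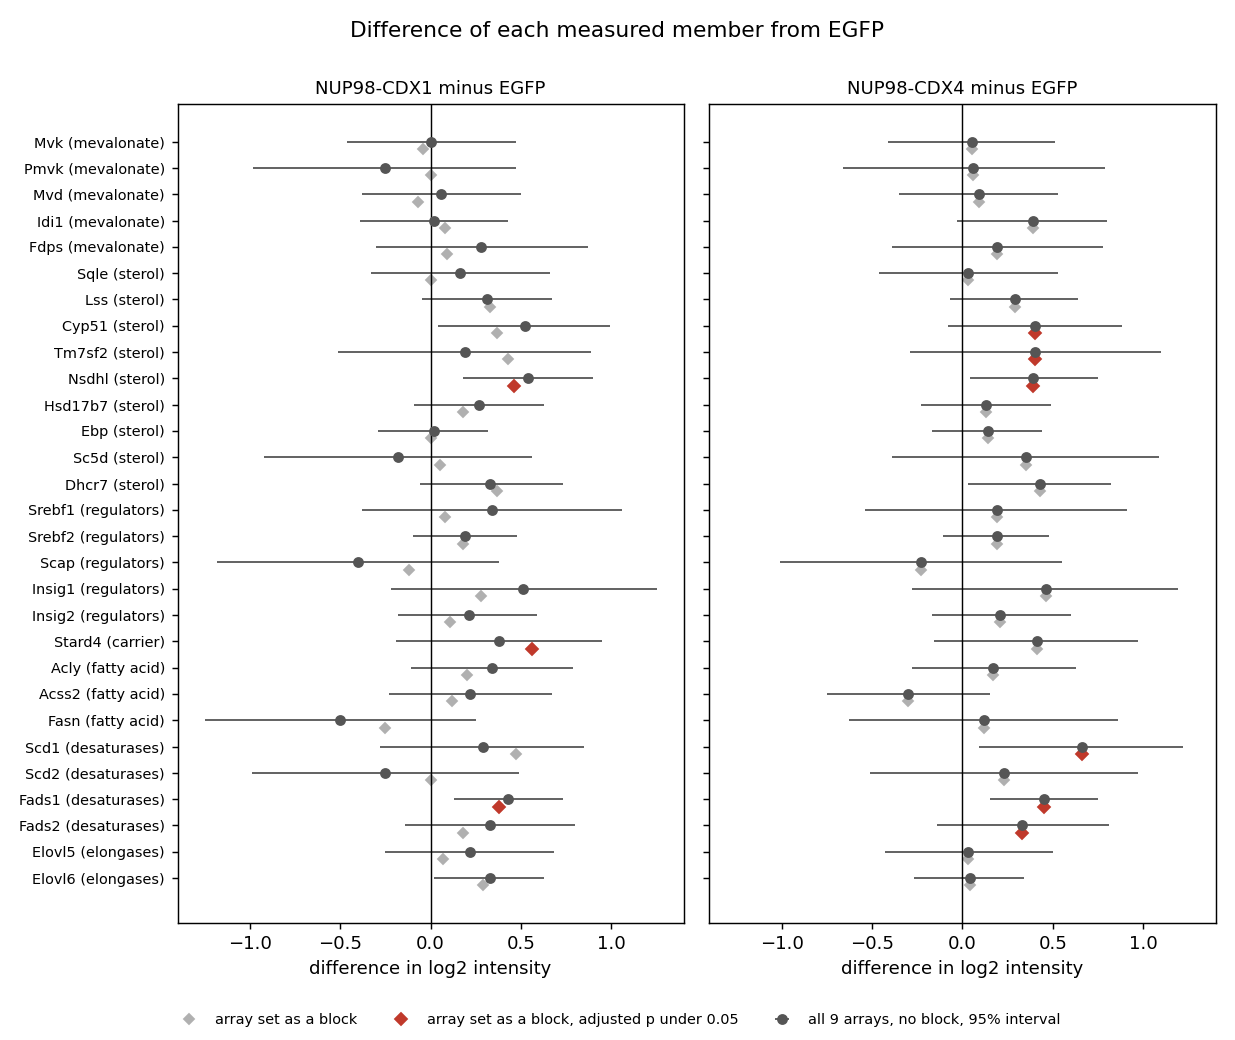
The x axis is the difference in log2 intensity from EGFP of each of the 29 synthesis genes (rows) in NUP98-CDX1 (left) and NUP98-CDX4 (right), n = 3 arrays per group, with circles and 95% intervals from the model without the block and diamonds from the model with array set as a block, red where the adjusted p is under 0.05. Most circles, 24 and 27 of 29, lie to the right of zero, and red diamonds mark 3 genes on the left and 6 on the right.

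With the array set as a block, 3 genes passed as higher in NUP98-CDX1, which were Nsdhl, Stard4 and Fads1, beside 3.22% of all named genes. In NUP98-CDX4, 6 passed as higher, which were Cyp51, Tm7sf2, Nsdhl, Scd1, Fads1 and Fads2, beside 9.75% of all named genes. None of the 29 passed as lower in either comparison, beside 2.95% and 8.56%. The median difference with the block was 0.12 in NUP98-CDX1 and 0.19 in NUP98-CDX4, beside 0.02 and 0.03 for all named genes. The NUP98-CDX4 median could not move, since EGFP and NUP98-CDX4 are spread alike over the sets. In NUP98-CDX1 the block lowered some differences, as for Srebf1 (0.34 to 0.08), Insig1 (0.51 to 0.28) and Fdps (0.28 to 0.09). It raised others, as for Tm7sf2 (0.19 to 0.43), Stard4 (0.38 to 0.56) and Scd1 (0.29 to 0.47). Within the brighter set alone the median difference was 0.13 and 0.23, and within the dimmer set alone 0.20 and 0.22. Leaving out each of the 9 arrays in turn, still with the block, left only Scd1 and Fads1 in NUP98-CDX4 with a call every time.

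Of the 6 genes that passed with the block in NUP98-CDX4, 4 have a promoter window in the RefSeq table, and their sequences are shown so that the boxes of these genes can be read beside their values. Each line gives the 250 bases before the start of the gene, 5' to 3' on the gene's strand, from RefSeq on GRCm38.p6. Capitals mark CCAAT, the box bound by NF-Y, and GGGCGG, the box bound by Sp1, on either strand, so that ATTGG and CCGCCC are the same boxes read backward.
Nsdhl, chrX:72918271-72918520, plus strand: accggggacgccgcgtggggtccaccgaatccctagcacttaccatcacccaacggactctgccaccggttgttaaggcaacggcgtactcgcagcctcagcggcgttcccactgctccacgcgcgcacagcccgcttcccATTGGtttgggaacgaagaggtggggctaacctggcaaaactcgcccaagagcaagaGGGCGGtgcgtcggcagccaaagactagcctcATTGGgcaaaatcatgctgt
Cyp51, chr5:4104698-4104947, minus strand: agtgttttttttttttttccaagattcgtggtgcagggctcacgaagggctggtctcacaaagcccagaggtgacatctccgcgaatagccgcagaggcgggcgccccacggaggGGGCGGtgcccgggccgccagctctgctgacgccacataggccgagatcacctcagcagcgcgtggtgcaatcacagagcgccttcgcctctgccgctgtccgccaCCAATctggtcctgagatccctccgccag
Tm7sf2, chr19:6067851-6068100, minus strand: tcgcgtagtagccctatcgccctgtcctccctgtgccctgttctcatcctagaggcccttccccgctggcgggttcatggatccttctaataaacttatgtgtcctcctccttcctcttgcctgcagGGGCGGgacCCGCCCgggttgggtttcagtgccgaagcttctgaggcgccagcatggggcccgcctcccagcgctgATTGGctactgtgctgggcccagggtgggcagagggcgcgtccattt
Fads2, chr19:10101504-10101753, minus strand: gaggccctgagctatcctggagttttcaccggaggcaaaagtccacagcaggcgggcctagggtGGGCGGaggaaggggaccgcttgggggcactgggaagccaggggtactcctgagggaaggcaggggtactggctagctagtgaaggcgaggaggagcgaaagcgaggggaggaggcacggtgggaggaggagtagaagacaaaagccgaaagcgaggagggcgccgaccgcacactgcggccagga

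NF-Y and Sp1 are known to act beside SREBP at sterol genes. Of the 29 measured genes, 23 have such a window and Scd1, Scd2, Fads1, Sqle, Fdps and Stard4 are without one. A CCAAT box was found in 19 of 23 genes (82.6%), beside 37.5% of 27025 genes in the table. A GGGCGG box was also found in 19 of 23 (82.6%), beside 35.4%. The E-box CACGTG was found in 6 of 23 (26.1%), beside 6.86%, while TCACNTGA, which can hold an E-box, was found in 1, Insig2 (4.35% beside 3.98%), and TCACNCCAC in 0, beside 1.22%. The windows are the same in every group of cells and describe the genes only. The 23 genes were all measured here, while the 27025 include genes that were not. A gene counted when any of its windows held the box, with 31 windows for the 23 genes and 32851 for the 27025. Whether the higher shares are particular to lipid synthesis genes was not tested.

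The early mevalonate enzymes lay close to EGFP in both fusions. Mvk and Pmvk add phosphates to mevalonate, Mvd makes the isoprene unit, Idi1 shifts its double bond and Fdps joins the units into farnesyl diphosphate. Of the 5, 0 passed in either comparison, without or with the block, and the median log2 difference was 0.02 in NUP98-CDX1 and 0.09 in NUP98-CDX4. Idi1 was 7.81, 7.40 and 7.51 on the EGFP arrays, 7.39, 7.73 and 7.66 on the NUP98-CDX1 arrays and 7.96, 7.71 and 8.21 on the NUP98-CDX4 arrays, in log2 intensity. The NUP98-CDX4 arrays reached higher but overlapped EGFP, with a difference of 0.39 ± 0.18 (SE) and an adjusted p of 0.365. Fdps differed by 0.28 and 0.19, Mvd by 0.06 and 0.09, Pmvk by -0.25 and 0.06, and Mvk by 0.00 and 0.05, in NUP98-CDX1 and NUP98-CDX4.

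The enzymes from squalene to cholesterol lay mostly above EGFP in both fusions, by small differences. Of the 9, 8 lay above EGFP in NUP98-CDX1, all but Sc5d, and 9 in NUP98-CDX4, with median log2 differences of 0.27 and 0.35, and 0 passed without the block. Nsdhl, a dehydrogenase that takes part in removing methyl groups from the sterol ring, was 9.58, 9.47 and 9.68 in EGFP, 10.21, 10.22 and 9.93 in NUP98-CDX1 and 9.96, 10.18 and 9.78 in NUP98-CDX4. All 6 fusion arrays lay above all 3 EGFP arrays. The differences were 0.54 ± 0.16 (SE) in NUP98-CDX1 and 0.39 ± 0.16 in NUP98-CDX4, with adjusted p of 0.184 and 0.253. With the block they were 0.46 (adjusted p = 0.0316) and 0.39 (adjusted p = 0.0212), and over all alternatives the adjusted p ran from 0.0309 to 0.574 and from 0.0193 to 0.586. With the block and 1 array left out, Nsdhl kept its call in NUP98-CDX1 only without NUP98-CDX4 replicate 1 or 3, at 0.39 to 0.50 over all 9 omissions with an adjusted p up to 0.203. In NUP98-CDX4 it lost it without EGFP replicate 2 or 3 or NUP98-CDX4 replicate 1 or 2, at 0.35 to 0.45 with an adjusted p up to 0.0984. All 4 measured Nsdhl probes had positive differences in both fusions.

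Cyp51, the demethylase that acts on lanosterol, was 10.51, 10.52 and 10.89 in EGFP, 11.19, 11.41 and 10.86 in NUP98-CDX1 and 10.99, 11.36 and 10.76 in NUP98-CDX4. The fusion groups overlapped EGFP only through EGFP replicate 3, an array of the dimmer set, and 1 brighter array each. With the block the differences were 0.37 (adjusted p = 0.0844) and 0.40 (adjusted p = 0.0307), and over all alternatives the adjusted p ran from 0.0778 to 0.869 in NUP98-CDX1 and from 0.0274 to 0.773 in NUP98-CDX4. In NUP98-CDX4 the call was lost, with the block, without any 1 of the EGFP arrays or NUP98-CDX4 replicate 1 or 2, at 0.35 to 0.47 with an adjusted p up to 0.124. Tm7sf2, a sterol reductase, was 7.01, 6.65 and 5.95 in EGFP, 6.44, 6.55 and 7.19 in NUP98-CDX1 and 7.11, 6.55 and 7.17 in NUP98-CDX4, so every group was low on its dimmer arrays and the groups overlapped. Its block difference in NUP98-CDX4 was 0.40 (adjusted p = 0.0498, and 0.016 to 0.979 over all alternatives). Leaving out 1 array kept that call only without EGFP replicate 1, with values of 0.32 to 0.53 and an adjusted p up to 0.204, and the same omission gave 0.54 (adjusted p = 0.0378) in NUP98-CDX1.

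The other 6 enzymes of this stretch were not called over all 9 arrays, without or with the block. Lss, which closes the ring, differed by 0.31 and 0.29 in NUP98-CDX1 and NUP98-CDX4, and Dhcr7, which makes cholesterol in the last step, by 0.33 and 0.43. The Dhcr7 values were 8.78, 8.88 and 9.05 in EGFP, 9.32, 9.01 and 9.38 in NUP98-CDX1 and 9.32, 9.08 and 9.59 in NUP98-CDX4. The NUP98-CDX4 arrays all lay above EGFP and the NUP98-CDX1 arrays did not. With the block and without EGFP replicate 3, Dhcr7 passed in NUP98-CDX4 (0.60, adjusted p = 0.0418, and 0.0418 to 0.978 over all alternatives). Sqle, which adds oxygen to squalene, differed by 0.16 and 0.03, Hsd17b7 by 0.27 and 0.13, the isomerase Ebp by 0.02 and 0.14, and the desaturase Sc5d by -0.18 and 0.35.

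Of the 5 regulators, 0 passed in either comparison, without or with the block over all 9 arrays. The median log2 differences were 0.21 in NUP98-CDX1 and 0.19 in NUP98-CDX4, or 0.11 and 0.19 with the block. Srebf2, the SREBP gene best known for sterol synthesis, was 10.32, 10.32 and 10.34 in EGFP, 10.60, 10.49 and 10.47 in NUP98-CDX1 and 10.39, 10.53 and 10.62 in NUP98-CDX4. All 6 fusion arrays lay above EGFP, by 0.19 ± 0.13 (SE) in each fusion, with adjusted p of 0.65 and 0.632. A second, dimmer Srebf2 probe differed by -0.10 and -0.03, or by 0.03 and -0.03 with the block. Srebf1, the SREBP gene best known for fatty acid synthesis, was 6.92, 6.83 and 7.78 in EGFP, 7.83, 7.71 and 7.0 in NUP98-CDX1 and 7.15, 7.79 and 7.14 in NUP98-CDX4. In each group its dimmer arrays were the high ones. Scap was the reverse, at 8.55, 8.59 and 7.97 in EGFP, 7.66, 7.80 and 8.45 in NUP98-CDX1 and 8.55, 7.37 and 8.50 in NUP98-CDX4, high on brighter arrays. Insig1, an SREBP target as well as a brake on SCAP, was 8.14, 8.26 and 8.54 in EGFP, 8.92, 9.23 and 8.33 in NUP98-CDX1 and 8.66, 9.44 and 8.21 in NUP98-CDX4. It overlapped EGFP in both, with differences of 0.51 and 0.46, and passed in NUP98-CDX4 only with the block and without NUP98-CDX4 replicate 3 (0.64, adjusted p = 0.032, and 0.032 to 0.952 over all alternatives). Insig2 differed by 0.21 in each.

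Stard4, a carrier of cholesterol between membranes, was 11.12, 11.01 and 10.29 in EGFP, 10.97, 10.98 and 11.60 in NUP98-CDX1 and 11.31, 11.05 and 11.27 in NUP98-CDX4. The lowest value by far was that of EGFP replicate 3, and the groups overlapped. With the block the differences were 0.56 (adjusted p = 0.0374) in NUP98-CDX1 and 0.41 (adjusted p = 0.0513) in NUP98-CDX4, with ranges over all alternatives of 0.018 to 0.923 and 0.049 to 0.842. The NUP98-CDX1 call was lost, with the block, when any 1 of the 6 EGFP and NUP98-CDX1 arrays was left out, at 0.41 to 0.62 with an adjusted p up to 0.246.

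**Figure D2:**
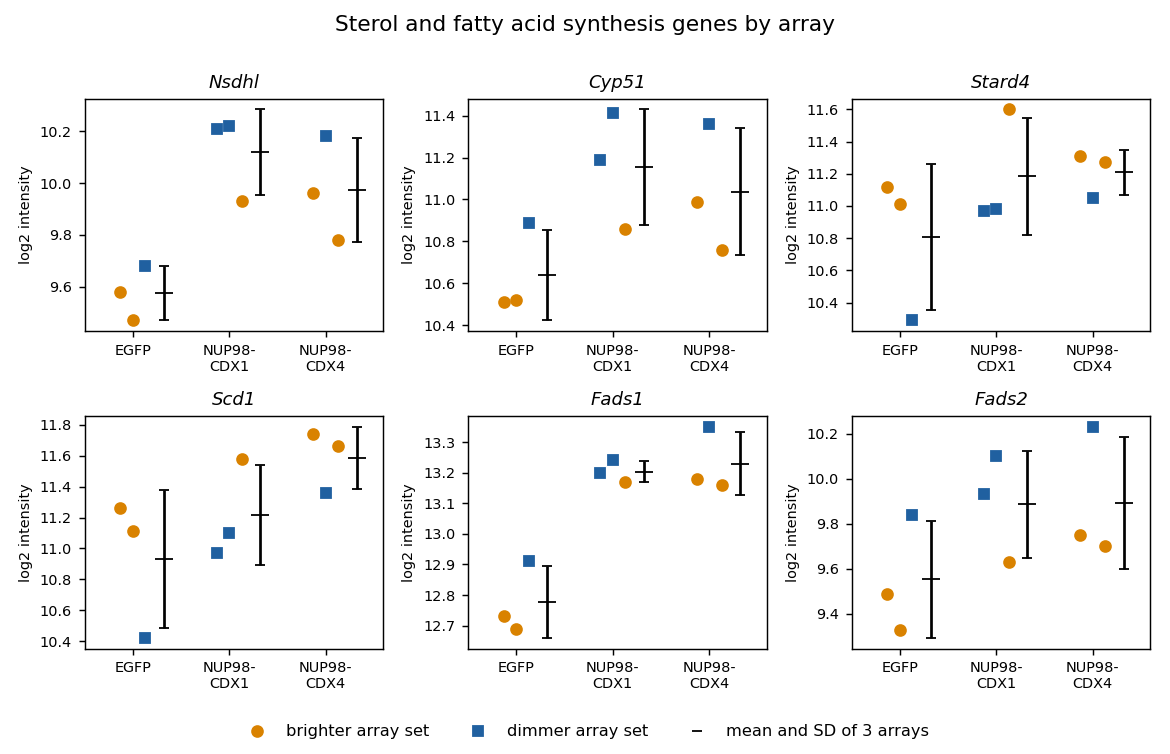
Log2 intensity on each of the 9 arrays for Nsdhl, Cyp51, Stard4, Scd1, Fads1 and Fads2, by group, with the array set by marker and the mean and SD of 3 arrays beside the points. Nsdhl and Fads1 have all 6 fusion arrays above EGFP, Scd1 has all NUP98-CDX4 arrays above EGFP, and in Cyp51, Stard4 and Fads2 the groups overlap.

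The 4 desaturases had median log2 differences of 0.31 under NUP98-CDX1 and 0.39 under NUP98-CDX4, and 0 passed without the block. Scd1, which puts the first double bond into saturated fatty acids, was 11.26, 11.11 and 10.42 in EGFP, 10.97, 11.10 and 11.58 in NUP98-CDX1 and 11.74, 11.36 and 11.66 in NUP98-CDX4. Every NUP98-CDX4 array lay above every EGFP array, and within each array set both fusions lay above EGFP. The NUP98-CDX4 difference was 0.66 ± 0.25 (SE), or 1.58-fold, with an adjusted p of 0.221, and with the block 0.66 ± 0.11 with an adjusted p of 0.0047. Over all alternatives the adjusted p ran from 0.0043 to 0.486. With the block and 1 array left out it stayed at 0.55 to 0.74, with adjusted p of 0.00654 to 0.0293 in all 9 omissions. In NUP98-CDX1 the difference was 0.29, and 0.47 with the block (adjusted p = 0.055, and 0.0478 to 0.998 over all alternatives, the lowest with the block and without NUP98-CDX4 replicate 2, at 0.50).

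Fads1, a desaturase of the polyunsaturated chain, was 12.73, 12.69 and 12.91 in EGFP, 13.20, 13.24 and 13.17 in NUP98-CDX1 and 13.18, 13.35 and 13.16 in NUP98-CDX4. All 6 fusion arrays lay above all 3 EGFP arrays, and the fusions overlapped each other. The differences were 0.43 ± 0.13 (SE), or 1.34-fold, in NUP98-CDX1 (adjusted p = 0.219) and 0.45 ± 0.13, or 1.37-fold, in NUP98-CDX4 (adjusted p = 0.0959). With the block they were 0.38 (adjusted p = 0.043) and 0.45 (adjusted p = 0.00709), and over all alternatives the adjusted p ran from 0.043 to 0.763 and from 0.00709 to 0.677. In NUP98-CDX4 the block call held in all 9 omissions of 1 array, at 0.43 to 0.48, and in NUP98-CDX1 it was lost in all 9, at 0.32 to 0.42 with an adjusted p of 0.0595 to 0.226. A second, dimmer Fads1 probe differed by -0.11 and 0.01, or by 0.15 and 0.01 with the block.

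Fads2, the desaturase that acts before Fads1, was 9.49, 9.33 and 9.84 in EGFP, 9.93, 10.10 and 9.63 in NUP98-CDX1 and 9.75, 10.23 and 9.70 in NUP98-CDX4. The groups overlapped through EGFP replicate 3, a dimmer array. Its difference of 0.33 in NUP98-CDX4 passed with the block (adjusted p = 0.042, and 0.0137 to 0.91 over all alternatives) and kept the call only without NUP98-CDX1 replicate 1 among the 9 omissions, at 0.29 to 0.38 with an adjusted p up to 0.162. Scd2, the close relative of Scd1, was not called, with differences of -0.25 under NUP98-CDX1 and 0.23 under NUP98-CDX4.

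The enzymes that make and lengthen the chain were called in neither comparison, without or with the block. Fasn, which builds palmitate, was 6.10, 6.35 and 5.70 in EGFP, 5.50, 4.99 and 6.17 in NUP98-CDX1 and 6.30, 5.65 and 6.54 in NUP98-CDX4, with overlapping groups and the low values on dimmer arrays. Acly, which makes cytosolic acetyl-CoA from citrate, differed by 0.34 and 0.17, and Acss2, which makes it from acetate, by 0.22 and -0.30. The elongase Elovl6 was 10.88, 10.82 and 11.0 in EGFP, 11.25, 11.34 and 11.10 in NUP98-CDX1 and 10.85, 10.95 and 11.02 in NUP98-CDX4. Its NUP98-CDX1 arrays lay above both other groups, by 0.33 ± 0.14 (SE) against EGFP with an adjusted p of 0.402. Elovl5 differed by 0.22 and 0.03.

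Counted by arrays that do not overlap, 4 genes lay wholly above EGFP in NUP98-CDX1 (Nsdhl, Srebf2, Fads1 and Elovl6), which is 13.8% beside 9.86% of all named genes. In NUP98-CDX4 there were 6 (Lss, Nsdhl, Dhcr7, Srebf2, Scd1 and Fads1), which is 20.7% beside 12.6%. In both comparisons 0 genes lay wholly below EGFP, beside 6.4% and 9.87% of all named genes. These counts use the brightest probe of each gene, and dimmer probes of several of these genes did not follow it. In NUP98-CDX1 the second probe differed by -0.10 for Srebf2, -0.11 for Fads1 and -0.19 for Elovl6. In NUP98-CDX4 it differed by -0.03 for Srebf2, 0.01 for Fads1 and -0.45 for Lss. The other Nsdhl probes were positive in both fusions.

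No gene separated the fusions from each other by the test. In NUP98-CDX4 against NUP98-CDX1, 0 of 29 passed, beside 0.18% of all named genes, and 0 passed with the block, beside 1.68%. The median difference was 0.01, with 16 of 29 genes above zero. The NUP98-CDX4 arrays lay wholly above NUP98-CDX1 for 1 gene, Ebp, beside 4.65% of all named genes, and wholly below for 1, Elovl6, beside 5.85%. The only gene with an unadjusted p under 0.05 was Acss2, lower in NUP98-CDX4 by -0.53 with a 95% interval from -0.98 to -0.07 and an adjusted p of 0.574. Its values were 9.5, 9.72 and 9.67 in EGFP, 9.93, 10.04 and 9.60 in NUP98-CDX1 and 9.0, 9.68 and 9.31 in NUP98-CDX4, and the fusions overlapped. The interval of this difference lay within 1 of zero for 25 of 29 genes, and for the other 4 it reached past 1 on the log2 scale.

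For many of these genes the array set difference was larger than that of either fusion. With both in the model, the array set difference was larger than both fusion differences for 19 of 29 genes. Its median size was 0.43 on the log2 scale, beside 0.18 for the NUP98-CDX1 difference and 0.23 for that of NUP98-CDX4, and it reached at least 0.5 for 11 genes. It ran both ways, with 18 genes higher in the dimmer set, from -0.82 for Scap to 0.78 for Srebf1.

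**Figure D3:**
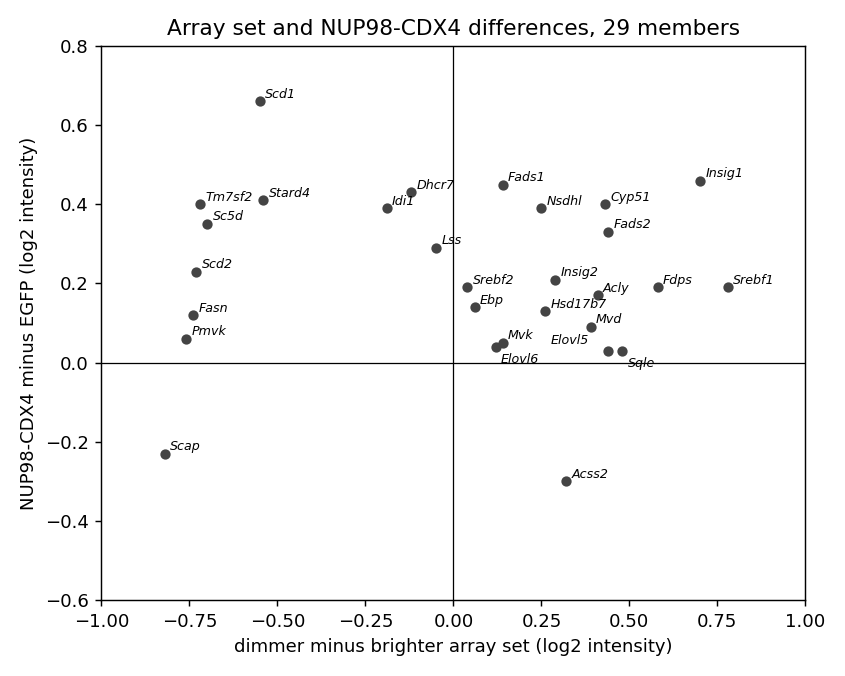
Each point is 1 of 29 synthesis genes, with the dimmer minus brighter array set difference on the x axis and the NUP98-CDX4 minus EGFP difference on the y axis, both in log2 intensity and from the model with both terms. The points spread from -0.82 to 0.78 across and from -0.30 to 0.66 upward.

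Other probes of the same genes often differed in direction. For 11 genes another probe was measured, 14 in all, and in 14 of 28 pairs of probe and comparison against EGFP its difference had the opposite sign to that of the brightest probe, or in 11 of 28 with the block. None passed without the block. With it 4 pairs passed, all as higher, which were 1 other Nsdhl probe in NUP98-CDX1 (0.61, adjusted p = 0.0166) and NUP98-CDX4 (0.54, adjusted p = 0.00794), and 1 other probe each of Fads2 (0.45, adjusted p = 0.0483) and Insig1 (0.50, adjusted p = 0.0424) in NUP98-CDX4. The second Insig2 probe had the widest gap, at -1.25 in NUP98-CDX4 (adjusted p = 0.149) against 0.21 for the brightest probe. For 8 of the 14 the array set difference also had the opposite sign.

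Neighbouring steps of lipid metabolism were read from listed genes outside the 29. Of 59 such genes, 1 passed without the block in NUP98-CDX1, as lower, beside 0.729% of all named genes higher and 0.499% lower. In NUP98-CDX4, 2 passed as higher and 4 as lower, beside 2.74% and 3.36%. With the block, 0 passed as higher and 6 as lower in NUP98-CDX1, where 6.18% of all named genes passed in either direction, and 9 as higher and 10 as lower in NUP98-CDX4, where 18.3% passed. Without the block, of 3 other sterol synthesis genes, 0 passed in either comparison with EGFP, and with it 1 passed as higher in NUP98-CDX4. Of 10 genes listed for sterol uptake, storage and export, 1 passed in each, Apoe as lower, and with the block 3 and 4 passed as lower. That list also held the SREBP proteases Mbtps1 and Mbtps2, neither of which passed. Of 14 other fatty acid synthesis genes, 1 passed as higher (Hacd1) and 1 as lower (Hacd4), both in NUP98-CDX4, and with the block 1 as lower in NUP98-CDX1, and 4 as higher and 1 as lower in NUP98-CDX4. Of 16 genes of fatty acid activation and glycerolipids, 1 passed as higher (Lpin1) and 2 as lower (Dgat2 and Lpl) in NUP98-CDX4 and 0 passed in NUP98-CDX1, while with the block it was 2 higher and 4 lower, and 1 lower. Of 16 genes listed for oxidation, 0 passed in either. With the block 1 passed as lower in NUP98-CDX1, and 2 as higher and 1 as lower in NUP98-CDX4. The lower gene was Pparg in both, a lipid-sensing nuclear receptor that is also among the 6 and 10 above. It met the detection rule only through EGFP and NUP98-CDX1 arrays, so no fall is read from it.

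Dgat2, which makes triglyceride from diacylglycerol, was 9.35, 9.78 and 10.12 in EGFP, 9.62, 9.23 and 8.61 in NUP98-CDX1 and 7.59, 7.48 and 6.87 in NUP98-CDX4. All NUP98-CDX4 arrays lay below all others, and it fell 5.43-fold against EGFP (log2 difference -2.44 ± 0.31 SE, adjusted p = 0.00218), a call that none of the alternatives removed, the block included (adjusted p = 0.000184), with adjusted p of 0.000171 to 0.0378. In NUP98-CDX1 it differed by -0.60 with an adjusted p of 0.53.

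Lpl, the lipase that frees fatty acids from lipoproteins, was 9.63, 10.12 and 11.23 in EGFP, 9.83, 10.35 and 9.53 in NUP98-CDX1 and 7.99, 9.02 and 6.58 in NUP98-CDX4. All NUP98-CDX4 arrays lay below EGFP, with a wide spread. It fell 5.51-fold in NUP98-CDX4 (log2 difference -2.46 ± 0.59 SE, adjusted p = 0.0452), and in NUP98-CDX1 it differed by -0.42. That call was lost in all omissions of 1 array except that of NUP98-CDX4 replicate 2, at -3.04 to -1.82 with an adjusted p up to 0.127. With the block the adjusted p was 0.00234, and over all alternatives it ran from 0.00178 to 0.127.

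Apoe, the lipoprotein protein that carries cholesterol out of macrophages, was 8.05, 8.01 and 7.36 in EGFP, 6.41, 6.58 and 6.55 in NUP98-CDX1 and 6.30, 6.96 and 6.40 in NUP98-CDX4. All 6 fusion arrays lay below EGFP. It fell 2.45-fold in NUP98-CDX1 (log2 difference -1.29 ± 0.23 SE, adjusted p = 0.0391) and 2.39-fold in NUP98-CDX4 (-1.25 ± 0.23, adjusted p = 0.0152). With the block the adjusted p was 0.0164 and 0.00529. The dimmer set alone gave -0.87 and -0.40, with EGFP replicate 3 its only EGFP array and NUP98-CDX4 replicate 2 its only NUP98-CDX4 array. Without EGFP replicate 1 or 2 or NUP98-CDX4 replicate 1 or 3 both calls were lost, and without any 1 NUP98-CDX1 array the NUP98-CDX1 call was lost too. Over all omissions it stayed at -1.51 to -1.17 and -1.48 to -1.13, with adjusted p up to 0.172 and 0.0743.

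Lpin1, which makes diacylglycerol, was 7.21, 6.63 and 6.94 in EGFP, 7.98, 7.88 and 7.54 in NUP98-CDX1 and 7.55, 8.43 and 8.13 in NUP98-CDX4, with all fusion arrays above EGFP. It rose in NUP98-CDX4 by 1.12 ± 0.25 (SE) on the log2 scale (adjusted p = 0.0341). The chain-lengthening dehydratase gene Hacd1 rose by 0.57 ± 0.13 (adjusted p = 0.0393), and its relative Hacd4 fell by 0.68 ± 0.16 (adjusted p = 0.0411), both with groups that do not overlap EGFP. Each of these 3 calls was lost in most omissions of 1 array. Lpin1 kept it only without NUP98-CDX1 replicate 3 or NUP98-CDX4 replicate 1 (0.92 to 1.36, adjusted p up to 0.141 over all 9), Hacd1 only without NUP98-CDX1 replicate 3 (0.51 to 0.62, up to 0.153), and Hacd4 only without NUP98-CDX1 replicate 3 or NUP98-CDX4 replicate 2 (-0.76 to -0.58, up to 0.156). With the block all 3 passed in NUP98-CDX4. In NUP98-CDX1 the differences were 0.88 for Lpin1, 0.40 for Hacd1 and -0.50 for Hacd4, with adjusted p of 0.168, 0.247 and 0.234. Hacd4 passed there with the block (-0.59, adjusted p = 0.00915, and 0.00879 to 0.517 over all alternatives), and lost that call without EGFP replicate 3 or NUP98-CDX1 replicate 3, at -0.62 to -0.55 over all 9 omissions with an adjusted p up to 0.0755.

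**Figure D4:**
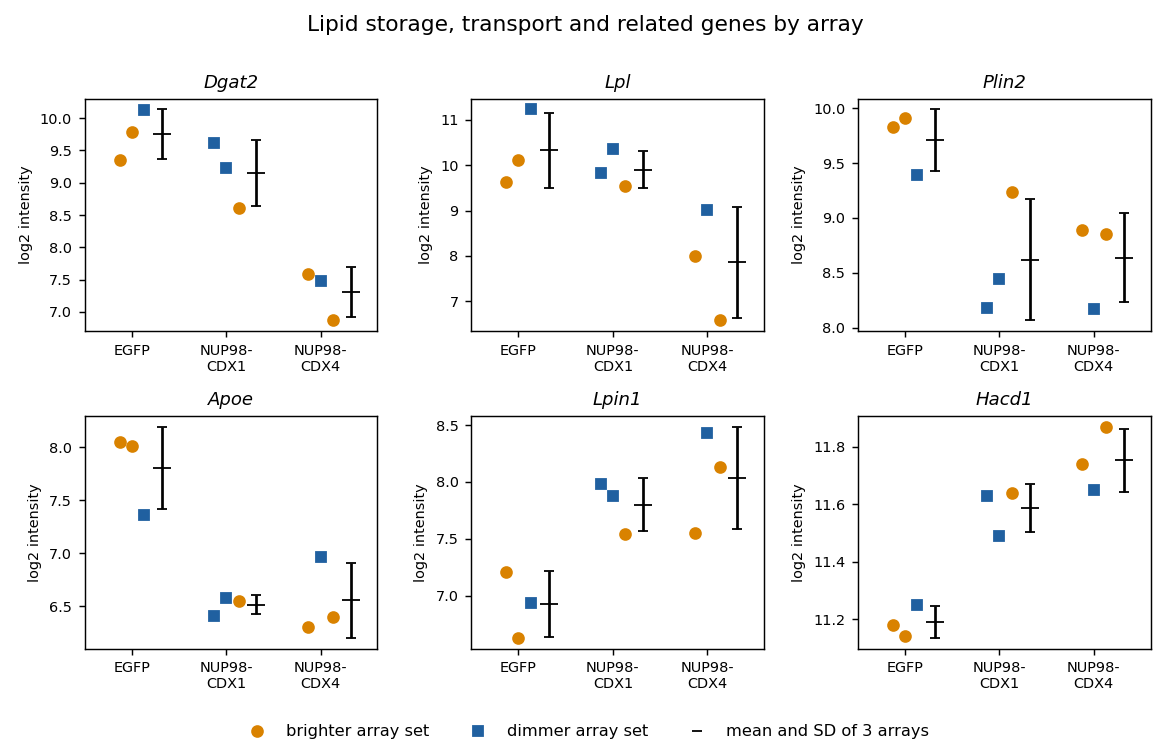
Log2 intensity on each of the 9 arrays for Dgat2, Lpl, Plin2, Apoe, Lpin1 and Hacd1, by group and array set, with the mean and SD of 3 arrays. Dgat2 and Lpl are lowest in NUP98-CDX4, all fusion arrays lie below EGFP for Plin2 and Apoe, and all lie above it for Lpin1 and Hacd1.

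Summed markers of late neutrophils and macrophages were lower than EGFP in both fusions. The sum of mast cell markers was lower only in NUP98-CDX4, although 4 of the 8 passed as lower in NUP98-CDX1 too. The summed intensity of 9 late neutrophil markers was 65900 to 74800 on the EGFP arrays, 34800 to 40700 in NUP98-CDX1 and 5970 to 14100 in NUP98-CDX4, and 4 and 8 of the 9 passed as lower without the block, beside 0.499% and 3.36% of all named genes. With the block it was 5 and 8, beside 2.95% and 8.56% of all named genes, and 1 passed as higher in NUP98-CDX4. That of 8 macrophage markers was 5900 to 7320, 4060 to 4580 and 2030 to 2940, and 3 and 6 of the 8 passed as lower, or 7 and 7 with the block, with 1 as higher in NUP98-CDX1 both ways. That of 8 mast cell markers was 9450 to 16100, 9860 to 16000 and 2590 to 3330, and 4 and 8 passed as lower, without and with the block. In NUP98-CDX1 the median log2 difference of these 8 was -1.82 and only 1 lay above zero, so their sum does not describe most of them. The summed intensity of the 8 haematopoietic markers was 59300 to 81400, 56200 to 77000 and 47900 to 60900, and 0 and 2 passed as lower, or 1 and 3 with the block. That of the 2 measured stromal and endothelial markers was 672 to 755, 820 to 929 and 951 to 1150, and 1 passed as higher in NUP98-CDX4, without and with the block. The 2 went opposite ways in NUP98-CDX4, with log2 differences of 0.62 and -0.71, so their sum does not describe both. That of 12 proliferation genes was 34900 to 36300, 35500 to 35900 and 36000 to 36900, with 0 called, without or with the block, and 0 of the 2 erythroid markers was called. In bulk RNA, fewer cells of a type and less RNA per cell cannot be told apart, and the part of the myeloid markers in the lipid gene values was not tested.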

How the data were processed

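Total RNA of 9 mouse bone marrow samples was hybridized to Illumina bead arrays. The intensity values are mean bead signals per probe, per the file headers, which the authors deposited as not normalized, and the submitters' processing notes name GenomeStudio with no version. The detection p-value of each probe is used as deposited by the authors. Processed intensities of unstated normalization, also deposited by the authors, served only as an alternative. The neqc function of limma 3.58.1 corrected the background, taking negative controls from the detection p with an offset of 16, then quantile normalized and log2 transformed the signals. The software was R 4.3.3 with the package data.table (version 1.17.8). The 19472 probes with detection p under 0.05 on 3 or more arrays were kept, symbols came from the platform annotation, and the brightest probe stood for a gene, giving 13160 features, 3142 of them without a symbol. No coordinates of probes were used.

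Group means over all 9 arrays were compared in limma with moderated variances. The Benjamini-Hochberg adjustment ran over all 13160 features, and the threshold was 0.05. Alternatives were array set as a block, replicate number as a block, each array left out, each array set alone, other normalization, filters, probe choices and only the groups compared. The array sets were read from undetected probes, not from labels. Each set alone left some groups with a single array, and the adjusted p ranges over all alternatives include these fits. The block with the mean of probes, and the block with an array left out, were chosen after seeing the data. The fit was tested on simulated data. Named were all measured members and every gene of the other lists past the threshold in any comparison. The members and lists were chosen with earlier results of these data known. The number of arrays limits the precision.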

Additional observations from a re-analysis of the deposited data

How the results depend on the processing

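In NUP98-CDX1 the count of synthesis genes past the threshold was 0, 3 with array set as a block and 1 with the block and the mean of each gene's probes, and 0, 1 or 2 with the block and 1 array left out. The median difference of 0.22 was 0.12 with the block, 0.13 in the brighter set alone, 0.15 with the mean of probes, 0.08 with the block and the mean of probes, 0.19 to 0.31 with 1 array left out, and 0.11, 0.14, 0.15 or 0.16 with the block and 1 array left out. In NUP98-CDX4 the count of 0 became 6 with the block, 6 with the block and the mean of probes, 2, 3, 4 or 5 with the block and 1 array left out, and 0 to 0 with 1 array left out. It was 1, Fads1, with quantile normalization without background correction (adjusted p = 0.0441), the authors' processed values (0.0384), no detection filter (0.0452) and a variance trend with robust fitting (0.0405). The NUP98-CDX4 median of 0.19 ran from 0.17 to 0.25 with 1 array left out. Between the fusions the median of 0.01 was 0.08 in the dimmer set alone, -0.03 to 0.05 with 1 array left out and 0.02 to 0.08 with the block and 1 array left out. Deviations from group means of arrays with the same replicate number correlated at -0.79 to 0.67 over 9 pairs, 3 of them above 0.1. The sign of each followed the array sets, so these values cannot show whether the numbers pair the samples. The replicate block gave 0, 0 and 0 genes, for NUP98-CDX1, for NUP98-CDX4, then between the fusions. It could not change the medians of 0.22, 0.19 and 0.01, since every group holds each replicate number. Of 898 values of single genes over all alternatives in each comparison, 84, 35 and 152 had the opposite sign to the value reported, which was uncalled, and 11, 47 and 0 passed the threshold. The cause of these differences was not tested. With 3 arrays per group the 95% intervals of single genes reach 0.29 to 0.78 to either side.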

Other observations

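Of the 59 genes of neighbouring lipid steps, 13 passed in NUP98-CDX4 only with array set as a block, where 18.3% of all named genes passed, and they are named here after their values were seen. Those that were higher, with their log2 difference and adjusted p with the block, were Fads3 (1.15, 0.0164), Slc25a1 (0.52, 0.0105), Agpat5 (0.47, 0.034), Msmo1 (0.44, 0.029), Tecr (0.42, 0.0135), Etfb (0.38, 0.0414) and Acads (0.34, 0.0336). Fads3 was detected on 2 of 3 EGFP arrays. Those that were lower and detected on all arrays were Plin2 (-1.07, 0.000533), Dgat1 (-0.67, 0.00846), Stard3 (-0.57, 0.00355) and Lipa (-0.48, 0.0476). Without the block the adjusted p of these 11 was 0.0659 to 0.484. Plin2, which coats lipid droplets, was 9.83, 9.91 and 9.39 in EGFP, 8.18, 8.44 and 9.24 in NUP98-CDX1 and 8.89, 8.17 and 8.85 in NUP98-CDX4, and its 6 fusion arrays lay below EGFP. Plin2 and Stard3 also passed as lower with the block in NUP98-CDX1 (adjusted p = 0.007 and 0.0309). Nr1h3, the sterol-sensing LXR alpha gene, was detected on 3 EGFP, 2 NUP98-CDX1 and 1 NUP98-CDX4 arrays and passed as lower in both with the block (adjusted p = 0.000478 and 9.85e-05, against 0.495 and 0.132 without it), with part of its values at background, so no size is given. Pparg, a lipid-sensing nuclear receptor, was detected on 2 EGFP, 1 NUP98-CDX1 and 0 NUP98-CDX4 arrays. It met the detection rule only through EGFP and NUP98-CDX1 arrays, which favours a lower value in NUP98-CDX4, so no size is given. Its adjusted p in NUP98-CDX4 was 0.105 and, with the block, 0.00907, and with the block in NUP98-CDX1 it was 0.0412. Given that selection, no fall is read from these values.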
